A study of Mus musculus with 8 samples.

Results

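Mitochondrial ribosomal protein genes were taken as every gene whose symbol is Mrpl or Mrps followed by a number and at most 1 letter. Their mean over the 8 libraries had to be at least 0 on the log2 CPM scale. CPM stands for reads per 1e+06 reads of the library, with the library size scaled in the deposited values. The name pattern found 76 of the 13744 genes in the deposited table, and all 76 passed the level condition, so none lay just outside it. The lowest mean was 1.14 log2 CPM for Mrps6 and the highest was 8.39 for Mrps14. By their place in the ribosome, 50 belonged to the large subunit, 25 to the small subunit, and 1, Mrps36, is now known as a subunit of the oxoglutarate dehydrogenase complex instead. Despite their names, Mrps18a and Mrps30 sit in the large subunit and were counted there. For 44 members a bacterial ribosome has a counterpart protein, 29 are found in mitochondria alone, and 3 (Mrpl55, Mrps28 and Mrps36) were not classed. The 76 genes lay on 17 chromosomes.

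Mitochondrial ribosomes translate the few messages encoded by mitochondrial DNA, all of which are core subunits of the respiratory chain complexes and of ATP synthase. Their ribosomal RNAs are transcribed inside the organelle, while every protein of the ribosome is encoded in the nucleus, made in the cytosol and imported. The large subunit holds the peptidyl transferase centre, the exit tunnel and a stalk that recruits translation factors, and the small subunit holds the decoding centre. Monocytes use mitochondria for respiration as well as for biosynthesis and signalling, and classical Ly6C+ monocytes are the cells from which Ly6C-low patrolling monocytes arise.

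The RNA came from Ly6C+ classical monocytes of mouse bone marrow. There were 4 genotypes with 2 libraries each: wild type, a conditional knockout of the transcriptional repressor Bcl6 (Bcl6 cKO), a knockout of the interferon regulatory factor Irf2 (Irf2 KO) and a knockout of the nuclear receptor Nr4a1 (Nr4a1 KO). The sources used here give no strain, sex, age or Cre line, and do not say whether replicates were separate mice, so p-values measure only the spread between these libraries, which may be technical. The design addresses how each factor shapes classical monocytes, with wild type as the control.

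Libraries held 46617756 to 62633123 reads in the table, and on the deposited scale 1 CPM stood for 47.9 to 61.8 reads. Nr4a1 fell in the Nr4a1 KO libraries (log2 fold change -2.31 ± 0.27 SE, limma adjusted p = 0.000622), and Irf2 was lower in the Irf2 KO libraries (-0.56 ± 0.14, limma adjusted p = 0.0222), a call that ended without any 1 of the wild type or Irf2 KO libraries (highest adjusted p 0.121). Bcl6 went against its label: it was 1.81 ± 0.16 higher (limma adjusted p = 0.00233) in the libraries labelled Bcl6 cKO, in reads counted over the whole gene, which do not show a deleted exon. Nr4a1 was also lower in the Irf2 KO libraries (-2.41 ± 0.27, limma adjusted p = 0.00163). The 10 classical monocyte markers were all in the table. They summed to 34550 and 39530 CPM in wild type, 36000 and 36710 in the libraries labelled Bcl6 cKO, 21570 and 23990 in Irf2 KO, and 37250 and 40490 in Nr4a1 KO. In Irf2 KO 6 were called lower and none higher, among them Lyz2 (14.5 and 14.7 log2 CPM in wild type, 13.5 and 13.6 in Irf2 KO). Lyz2 had the highest level of the 10 in every library, so the sums followed it more than any other marker. Ly6c2 (11.9 and 12.2 against 12.3 and 12.6) and Ccr2 (10.3 and 10.1 against 9.83 and 10.1) did not follow the sum. The libraries labelled Bcl6 cKO had 1 marker called higher and Nr4a1 KO had 2, with none lower in either.

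In wild type cells the members ranged widely in level. Per kilobase of exon, the highest were Mrps21, a small subunit protein with a bacterial counterpart (7.80 log2 CPM per kilobase), Mrpl28 (7.71) and Mrpl18 (7.51), and the lowest were Mrps30 (-0.16), Mrps35 (-0.16) and Mrpl3 (0.32). Mrps30 had 6.22 and 5.76 CPM in the 2 wild type libraries, Mrps35 had 9.21 and 6.52 CPM, and Mrps21 had 165.5 and 164.2 CPM, all without regard to length. Between the 2 libraries of a genotype the median member differed by 0.09 (wild type), 0.09 (labelled Bcl6 cKO), 0.12 (Irf2 KO) and 0.12 (Nr4a1 KO) on the log2 CPM scale.

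The summed level of the 76 members was 5991 and 5810 CPM in wild type, 6182 and 6122 in the libraries labelled Bcl6 cKO, 7104 and 7698 in Irf2 KO, and 5464 and 5820 in Nr4a1 KO. Both Irf2 KO libraries lay above all 6 others, and the Nr4a1 KO and wild type libraries overlapped. For the large subunit alone the sums were 4403 and 4325 CPM in wild type, 5280 and 5762 in Irf2 KO, and 3876 and 4141 in Nr4a1 KO. On this scale Nr4a1 KO therefore lay below wild type. For the small subunit they were 1553 and 1447 in wild type, 1772 and 1879 in Irf2 KO, and 1548 and 1636 in Nr4a1 KO, where they overlapped with wild type. These sums are on the deposited CPM scale and measure neither RNA per cell nor the number of cells. That scale is not a plain share of reads. In wild type replicate 1 a CPM stood for 57.98 reads, with 59063694 reads in the table. In Nr4a1 KO replicate 1 it stood for 51.02 reads, with 48579784 in the table. Small gaps between genotypes in these sums can therefore depend on the scaling. A change within cells and a changed mix of cells cannot be told apart in such bulk measurements.

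**Figure D1:**
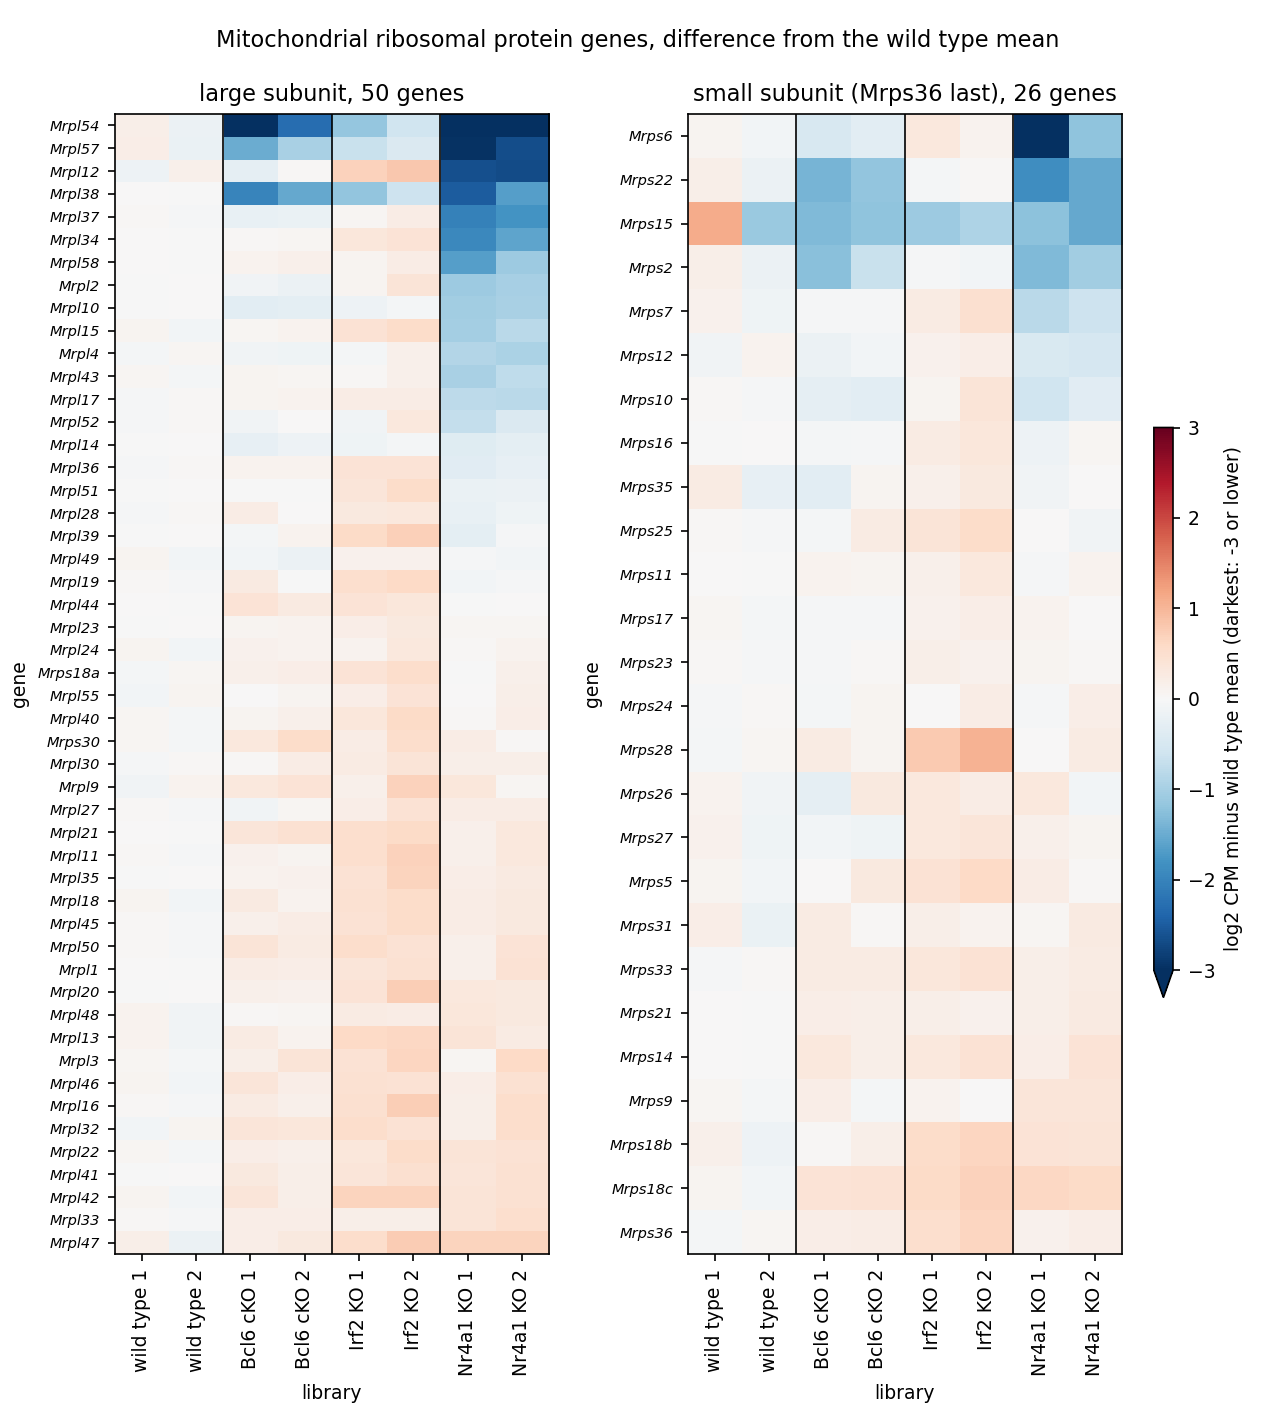
Difference of each gene's log2 CPM from its wild type mean (colour, red higher and blue lower, darkest blue for -3 or below) in the 8 libraries (columns), with the 50 large subunit genes on the left and the 25 small subunit genes plus Mrps36 on the right, sorted by the Nr4a1 KO difference. The Irf2 KO columns are pale red in most rows, while the Nr4a1 KO columns hold a block of blue rows led by Mrpl54, Mrpl57, Mrpl12 and Mrps6.

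In Irf2 KO monocytes mitochondrial ribosomal protein genes were mostly higher than in wild type, by modest amounts. In limma's moderated test with Benjamini-Hochberg adjustment, 33 of the 76 rose and 1 fell at an adjusted p under 0.05. Over all 12752 genes tested 9.26% were called higher and 12.3% lower, against 43.4% and 1.32% of the members. The median log2 fold change of the members was 0.35, beside -0.04 over all genes tested, and 68 of the 76 had a positive value. The rises ran from 0.37 for Mrps14 to 0.90 for Mrps28, none reached 2-fold, and in all 33 the Irf2 KO libraries lay above both wild type libraries. With 2 libraries per genotype a called gene will nearly always separate so, and uncalled members such as Mrps21 and Mrps23 did too. The share over all genes was not computed, so such separation, here and below, adds nothing to the calls.

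The large subunit supplied 25 of the 33 rises (of its 50 genes) and the only fall, and its median log2 fold change was 0.41. Its largest rise was that of Mrpl12, the stalk protein through which translation factors are recruited, which had 84.3 and 102.5 CPM in wild type and 150.1 and 164.1 in Irf2 KO (log2 fold change 0.76 ± 0.14, adjusted p = 0.00887). Mrpl42, a protein that bacterial ribosomes lack, went from 187 and 166 CPM to 281 and 281 (0.67 ± 0.10, adjusted p = 0.00415). The libraries of both genes did not overlap between the genotypes. The difference between the subunits was not tested.

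Mrpl47, the counterpart of a bacterial protein at the exit of the tunnel, had 17.6 and 13.9 CPM in wild type and 22.6 and 26.6 in Irf2 KO (0.65 ± 0.16, adjusted p = 0.024). Mrpl39, which resembles a threonyl-tRNA synthetase, went from 41.3 and 41.4 CPM to 61.5 and 67.5 (0.64 ± 0.13, adjusted p = 0.0121). Mrpl16, a core protein with a bacterial counterpart, went from 60.2 and 57.7 CPM to 82.0 and 98.4 (0.61 ± 0.14, adjusted p = 0.0202). In each the higher of the wild type libraries lay below the lower of the Irf2 KO libraries. Mrpl13, another core protein, also rose (0.60 ± 0.12, adjusted p = 0.0108).

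In the small subunit 7 of 25 genes rose, none fell (10 and 0 at an unadjusted p under 0.05), and the median was 0.23. Of all 12752 genes 2013 were higher and 2640 lower at that unadjusted threshold. Mrps28 had the largest rise of all members: 47.6 and 51.5 CPM in wild type, and 84.7 and 101.3 in Irf2 KO (0.90 ± 0.13, adjusted p = 0.00394). Mrps18c, the counterpart of bacterial S18, rose, as did Mrps18a and Mrps18b, which are named for their likeness to it. Mrps18c had 60.2 and 52.9 CPM in wild type and 84.5 and 91.4 in Irf2 KO (0.64 ± 0.11, adjusted p = 0.00587). Mrps36, the gene outside the ribosome, rose as well, from 35.1 and 37.9 CPM to 51.8 and 56.9 (0.57 ± 0.11, adjusted p = 0.0108).

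The only member that fell in Irf2 KO was Mrpl54, a large subunit protein found in mitochondria alone. It had 80.3 and 62.0 CPM in wild type and 31.8 and 46.3 in Irf2 KO (-0.88 ± 0.27, adjusted p = 0.0488). Leaving out any 1 library of wild type or Irf2 KO ended that call (highest adjusted p 0.247), as did quantile normalization, median centring and a correction for GC content and length.

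Irf2 KO replicate 2 was higher than replicate 1 in 60 of the 76 members. Fewer rises were called without any 1 library of wild type or Irf2 KO, and fewest without Irf2 KO replicate 2. Both held among the members and over all genes tested, so the loss of calls was not particular to the members. The calls of Mrpl42, Mrps18c and Mrps28 held without any single library, and the median stayed between 0.30 and 0.42. Median centring called 41 higher and none lower, quantile normalization 38 and none, and the member median relative to all genes was 0.39 under either and without them. Over all genes 1181 were called higher and 1574 lower without rescaling, 1666 and 1142 under median centring, and 1405 and 1213 under quantile normalization. Neutrophil markers summed to 1797 and 1502 CPM in wild type and 340.3 and 861.9 in Irf2 KO (all 10 in the table), erythroid markers to 24.4 and 25.4 and to 2.62 and 4.87 (4 of 7), B cell markers to 84.3 and 84.4 and to 43.8 and 38.1 (all 6), and dendritic cell markers to 77.1 and 84.7 and to 33.0 and 27.9 (5 of 6), and their part in the result was not tested. Of the 6 T and NK cell markers only Nkg7 was in the table, at 2.88 and 3.32 log2 CPM in wild type and 3.92 and 4.05 in Irf2 KO.

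In Nr4a1 KO monocytes the members split. A group of 19 fell, 12 of them by more than 2-fold, and 6 rose by less than 2-fold (limma, adjusted p under 0.05). Over all genes tested 11.2% were called lower and 3.94% higher, against 25% and 7.89% of the members. The median log2 fold change was 0.08 for the members and 0.01 for all genes and the lower quartile of the members was -0.50. Median centring moved the median of all genes by 0.129 on the log2 scale here and by 0.102 in Irf2 KO. Under it the split was 20 higher and 17 lower, and under quantile normalization it was 21 and 17. Over all 12752 genes 502 were called higher and 1423 lower without rescaling. Median centring gave 1176 and 1145, and quantile normalization 1071 and 1205. The number of small rises thus depended on the scaling, among members as over all genes. Relative to all genes, the member median was 0.07 higher, but 0.015 without Nr4a1 KO replicate 2, 0.020 without wild type replicate 2 and 0.032 after correction for GC content and length.

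Of the large subunit's 50 genes 14 fell, 9 of them by more than 2-fold, and 5 rose. Mrpl54 had the largest fall, from 80.3 and 62.0 CPM in wild type to 6.95 and 7.27 in Nr4a1 KO (-3.31 ± 0.27, adjusted p = 9.02e-05). Mrpl57, another protein of mitochondria alone, went from 125 and 93.6 CPM to 13.8 and 17.2 (-2.81 ± 0.21, adjusted p = 6.4e-05). Mrpl12, the stalk protein, went from 84.3 and 102.5 CPM to 15.0 and 14.5 (-2.65 ± 0.14, adjusted p = 1.69e-05). The 2 Nr4a1 KO libraries of each lay several-fold below the lower wild type library, in contrast to the rise of Mrpl12 in Irf2 KO.

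Mrpl38, part of the central protuberance, had 23.5 and 23.0 CPM in wild type and 4.15 and 7.42 in Nr4a1 KO (-2.07 ± 0.31, adjusted p = 0.00249). Mrpl37, which bacterial ribosomes lack, went from 72.7 and 69.5 CPM to 17.4 and 20.6 (-1.91 ± 0.12, adjusted p = 2.98e-05). Mrpl34, with a bacterial counterpart, went from 68.9 and 68.4 CPM to 18.0 and 23.1 (-1.75 ± 0.13, adjusted p = 6.4e-05). None of these overlapped with wild type, and Mrpl37 and Mrpl34 agreed between replicates more closely than Mrpl38 did.

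Mrpl58, a peptidyl-tRNA hydrolase built into the large subunit, had 115.2 and 114.4 CPM in wild type and 36.2 and 53.5 in Nr4a1 KO (-1.38 ± 0.17, adjusted p = 0.000776). Mrpl10, which anchors the stalk that Mrpl12 forms, went from 55.2 and 56.6 CPM to 26.9 and 28.5 (-1.01 ± 0.11, adjusted p = 0.000406), so both stalk proteins were lower. The other falls in the large subunit were those of Mrpl2, next to the peptidyl transferase centre (-1.04), Mrpl15 (-0.92), Mrpl4, which lines the exit tunnel (-0.91), Mrpl43 (-0.86), Mrpl17 (-0.79) and Mrpl52 (-0.57).

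In the small subunit 5 of 25 genes fell and 1 rose. Mrps22, a protein of mitochondria alone, had 18.2 and 14.1 CPM in wild type and 4.42 and 5.56 in Nr4a1 KO (-1.69 ± 0.21, adjusted p = 0.000823). Mrps6 was the member with the lowest level, 3.51 and 3.15 CPM in wild type and 0.362 and 1.45 in Nr4a1 KO (-2.20 ± 0.55, adjusted p = 0.0299), where replicate 1 held 18 reads, and its call ended without either wild type library or either library labelled Bcl6 cKO (adjusted p up to 0.117). Mrps2 (-1.18), Mrps7 (-0.71) and Mrps12, a protein of the decoding centre (-0.48), were the other falls.

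The 6 rises in Nr4a1 KO were those of Mrpl47 (0.67 ± 0.16, adjusted p = 0.0259), Mrps18c (0.60 ± 0.11, adjusted p = 0.00667), Mrpl33 (0.44 ± 0.09, adjusted p = 0.0102), Mrpl42 (0.43 ± 0.10, adjusted p = 0.0245), Mrpl41 (0.42 ± 0.10, adjusted p = 0.0281) and Mrpl22 (0.40 ± 0.11, adjusted p = 0.0401). Mrps18c, at 86.7 and 84.0 CPM in Nr4a1 KO, stood level with its Irf2 KO values. Mrpl33 was the only member called higher in Nr4a1 KO without being called in another knockout, with 212.6 and 204.1 CPM in wild type and 270.4 and 297.1 in Nr4a1 KO. In both, the Nr4a1 KO libraries lay above the wild type libraries. The call of Mrps18c held without any single library, and those of the other 5 rises did not.

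Of the 19 falls 14 held without any single library: Mrpl2, Mrpl4, Mrpl10, Mrpl12, Mrpl15, Mrpl17, Mrpl34, Mrpl37, Mrpl38, Mrpl43, Mrpl54, Mrpl57, Mrpl58 and Mrps22. Neutrophil markers summed to 1886 and 1825 CPM in Nr4a1 KO, near the wild type sums, and classical monocyte markers were as given above. Erythroid markers summed to 9.23 and 13.9 CPM, B cell markers to 90.4 and 57.9 and dendritic cell markers to 69.2 and 89.97.

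**Figure D2:**
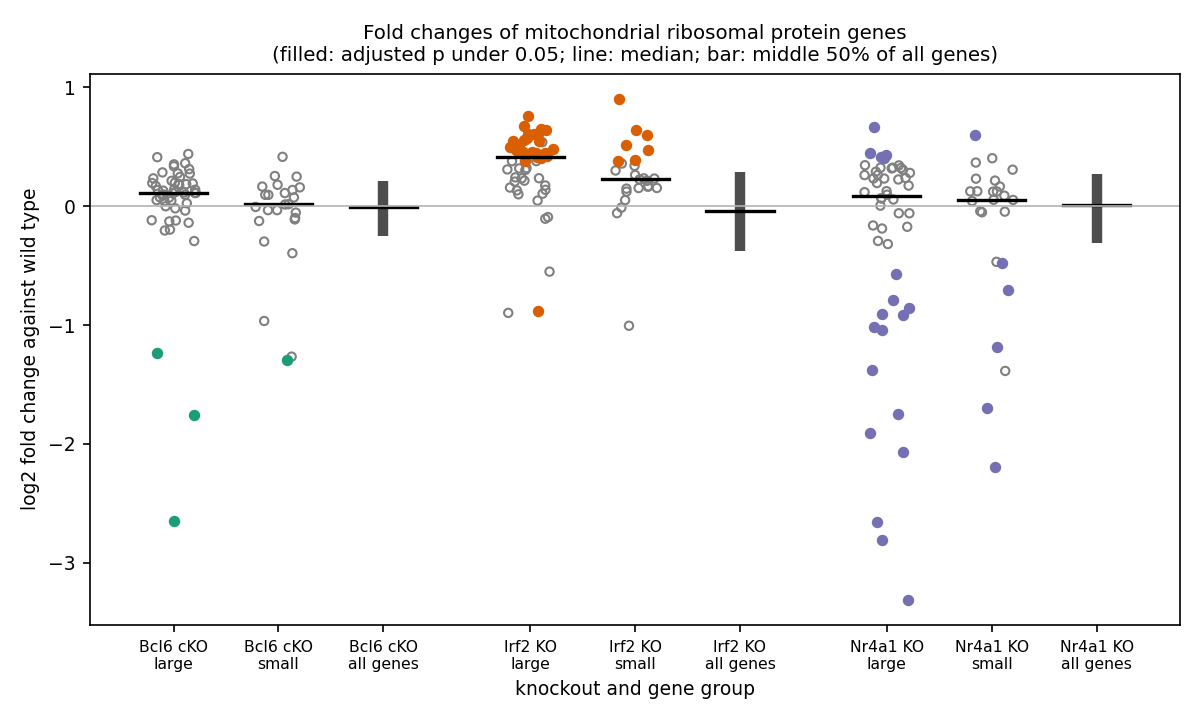
Log2 fold change against wild type (vertical axis) of each large and small subunit gene (points) in the 3 knockouts, with medians as lines and, for all 12752 genes tested, the middle 50% as a bar. Filled points passed an adjusted p of 0.05. Irf2 KO points cluster above 0 with medians of 0.41 and 0.23, while Nr4a1 KO has a tail of filled points reaching -3.31.

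In the libraries labelled Bcl6 cKO 4 members fell, each by more than 2-fold, and none rose in limma's test. At an unadjusted p under 0.05 8 members were higher and 6 lower, beside 1086 and 1669 of all 12752 genes. Limma voom on recovered reads called 0 higher and 5 lower, and the authors' deposited table called 1 higher and 5 lower. Over all genes tested 3.65% were called lower and 1.36% higher, so the 5.26% of members called lower was close to the share of all genes. The median of the members was 0.10 (all genes -0.01), and both scalings gave 2 higher and 4 lower. Over all genes median centring gave 256 higher and 373 lower, and quantile normalization 249 and 385.

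The 4 falls were all of proteins found in mitochondria alone, 3 in the large subunit and 1 in the small. Of the 76 members 29 are of this kind, and a link between kind and fall was not tested. Mrpl54 went from 80.3 and 62.0 CPM in wild type to 8.68 and 14.6 under the Bcl6 cKO label (-2.65 ± 0.27, adjusted p = 0.00282). Mrpl38 went from 23.5 and 23.0 CPM to 5.89 and 8.00 (-1.76 ± 0.31, adjusted p = 0.0163). The libraries of both were well separated from wild type.

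Mrps22 went from 18.2 and 14.1 CPM to 6.07 and 7.02 (-1.30 ± 0.21, adjusted p = 0.0119). Mrpl57 went from 125 and 93.6 CPM to 38.3 and 55.4 (-1.23 ± 0.21, adjusted p = 0.0156). They too did not overlap with wild type. The call of Mrpl54 held without any single library. The count of falls was 1 without wild type replicate 1, 1 without the first library labelled Bcl6 cKO, and 2 without the second. Mrps2, which has a bacterial counterpart, narrowly missed the threshold (-0.97 ± 0.23, adjusted p = 0.051), so the make-up of the falls depends on it. Neutrophil markers summed to 940.8 and 797.9 CPM in these libraries, B cell markers to 42.4 and 53.0 and erythroid markers to 15.5 and 7.61, and their part in the result was not tested.

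The calls in the 3 knockouts can be set side by side, though all 3 comparisons share the wild type libraries and are not independent. Of the 76 members 25 were called in none, 26 were called higher in Irf2 KO and in no other knockout, and 13 were called lower in Nr4a1 KO and in no other. The share of all genes with each combination of calls was not computed. These combinations therefore describe the members and are not shown to be particular to them. Mrpl54 was lower in all 3, at -2.65 (labelled Bcl6 cKO), -0.88 (Irf2 KO) and -3.31 (Nr4a1 KO). Mrpl38, Mrpl57 and Mrps22 were lower in Nr4a1 KO and in the libraries labelled Bcl6 cKO. Their values in Irf2 KO were -0.90 ± 0.31 (adjusted p = 0.0691), -0.55 ± 0.21 (adjusted p = 0.0968) and -0.01 ± 0.21 (adjusted p = 0.971). Mrpl22, Mrpl41, Mrpl42, Mrpl47 and Mrps18c rose in both Irf2 KO and Nr4a1 KO.

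Mrpl12 and Mrpl15 were called in opposite directions. Mrpl15, a core protein with a bacterial counterpart, had 82.2 and 74.0 CPM in wild type, 80.6 and 83.6 in the libraries labelled Bcl6 cKO, 104.7 and 114.4 in Irf2 KO and 38.4 and 44.3 in Nr4a1 KO. It rose in Irf2 KO (0.49 ± 0.12, adjusted p = 0.0205), a call that ended without wild type replicate 2 or either Irf2 KO library, and fell in Nr4a1 KO (-0.92 ± 0.12, adjusted p = 0.00102). The rise of Mrpl12 ended without Irf2 KO replicate 2 (adjusted p = 0.0594). Tested directly, Irf2 KO exceeded Nr4a1 KO by 1.41 ± 0.12 for Mrpl15 (limma adjusted p = 0.000121).

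**Figure D3:**
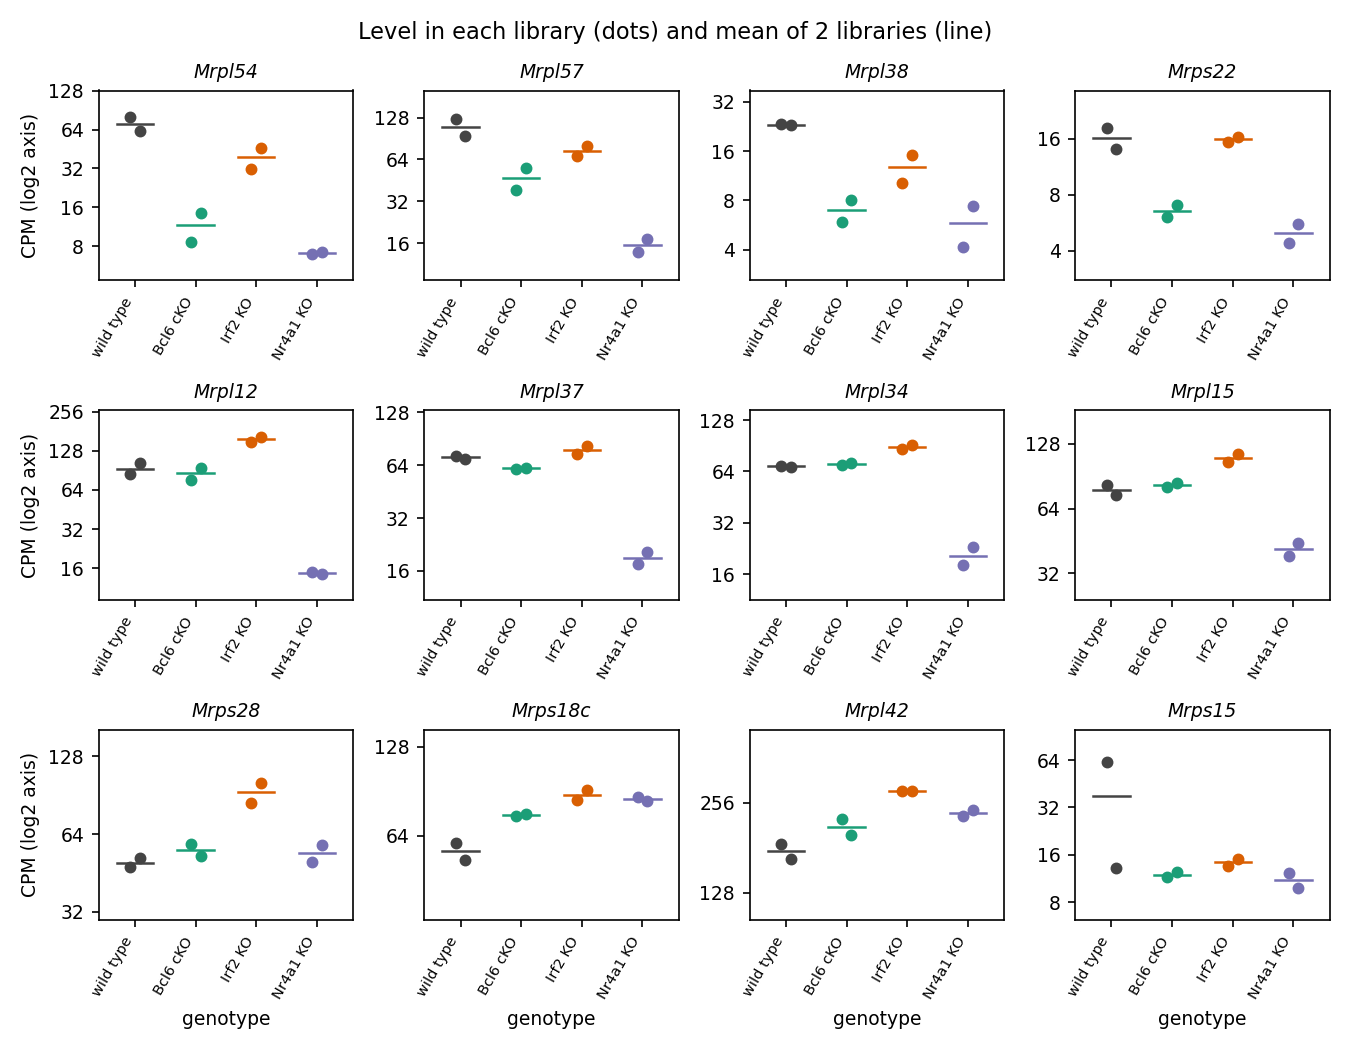
Level in CPM (vertical axes, log2 scale) of 12 members in each library (dots) and the mean of 2 libraries (lines) in the 4 genotypes. Mrpl54 is lowest in Nr4a1 KO at 6.95 and 7.27 CPM, Mrpl12 is high in Irf2 KO and low in Nr4a1 KO, and Mrps15 stands out in wild type replicate 1.

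Direct tests between the knockouts, which do not use the wild type libraries except for the spread, bore on these differences. Irf2 KO was higher than Nr4a1 KO in 31 members (40.8%, beside 12.4% of all genes) and lower in none (9.94% of all genes). At an unadjusted p under 0.05 these were 40 and 2, beside 2416 and 2232 of all 12752 genes, and voom called 31 and 0. The median was 0.28, and 14 of the 31 exceeded 2-fold. Mrpl12 differed most (3.41 ± 0.14, adjusted p = 2.01e-05), followed by Mrpl54 (2.43 ± 0.27), Mrps6 (2.41 ± 0.55), Mrpl57 (2.26 ± 0.21) and Mrpl34 (2.13 ± 0.13). Without Irf2 KO replicate 2 the count was 19. Quantile normalization and median centring each called 29 higher and 1 lower. Over all genes they called 1396 higher and 1443 lower, and 1442 and 1382, in that order.

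The libraries labelled Bcl6 cKO were higher than Nr4a1 KO in 13 members (17.1%, beside 4.97% of all genes) and lower in none (0.776%). At an unadjusted p under 0.05 these were 19 and 4, beside 1586 and 810 of all 12752 genes, and 13 and 0 by voom. The 13 called members were led by Mrpl12 (2.53 ± 0.14, adjusted p = 0.000103), Mrpl34 (1.79 ± 0.13), Mrpl37 (1.70 ± 0.12), Mrpl57 (1.58 ± 0.21) and Mrpl58 (1.51 ± 0.17). For Mrpl38 and Mrps22, lower than wild type in both, the difference between these genotypes did not pass (0.31 ± 0.31, adjusted p = 0.662, and 0.40 ± 0.21, adjusted p = 0.351).

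Against Irf2 KO, the libraries labelled Bcl6 cKO were lower in 11 members (14.5%, beside 3.87% of all genes) and higher in none (5.68%). At an unadjusted p under 0.05, 37 were lower and 0 higher, beside 1647 and 1788 of all 12752 genes, and voom called 13 and 0. The largest differences were those of Mrpl54 (-1.77 ± 0.27, adjusted p = 0.00768), Mrps22 (-1.28 ± 0.21), Mrps2 (-0.91 ± 0.23), Mrpl12 (-0.88 ± 0.14) and Mrps28 (-0.74 ± 0.13). The count was 0 without replicate 1 labelled Bcl6 cKO or without Irf2 KO replicate 2, 2 without replicate 2 labelled Bcl6 cKO, 6 without either wild type library, and 7 without Irf2 KO replicate 1.

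Fold changes were related to base composition. Over the 76 members the Spearman correlation of log2 fold change with transcript GC content was -0.447 (labelled Bcl6 cKO), -0.319 (Irf2 KO) and -0.405 (Nr4a1 KO). Over 12740 genes it was -0.321, -0.21 and -0.347, across genes that share libraries and are not independent replicates. The 4 falls in the libraries labelled Bcl6 cKO had a median GC content of 52.7%, beside 50.6% for the uncalled members. The falls in Nr4a1 KO had a median GC content of 55.3%, the rises 47.1% and the uncalled members 50.1%. Mrpl54 was the richest in GC of all members (60.4%), while Mrpl57 (42.3%) and Mrps22 (45.8%) fell as well with far less. After correction for GC content and length 16 of the 19 falls and 3 of the 6 rises in Nr4a1 KO kept their calls, as did 29 of the 33 rises in Irf2 KO and all 4 falls in the libraries labelled Bcl6 cKO. With transcript length the correlation over all genes was -0.115 (labelled Bcl6 cKO), -0.227 (Irf2 KO) and -0.091 (Nr4a1 KO). Over the members it was 0.047, 0.126 and -0.058. The median transcript had 1179.5 bases among members and 2046 among all genes. The part of base composition and of length in the result was not otherwise tested.

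**Figure D4:**
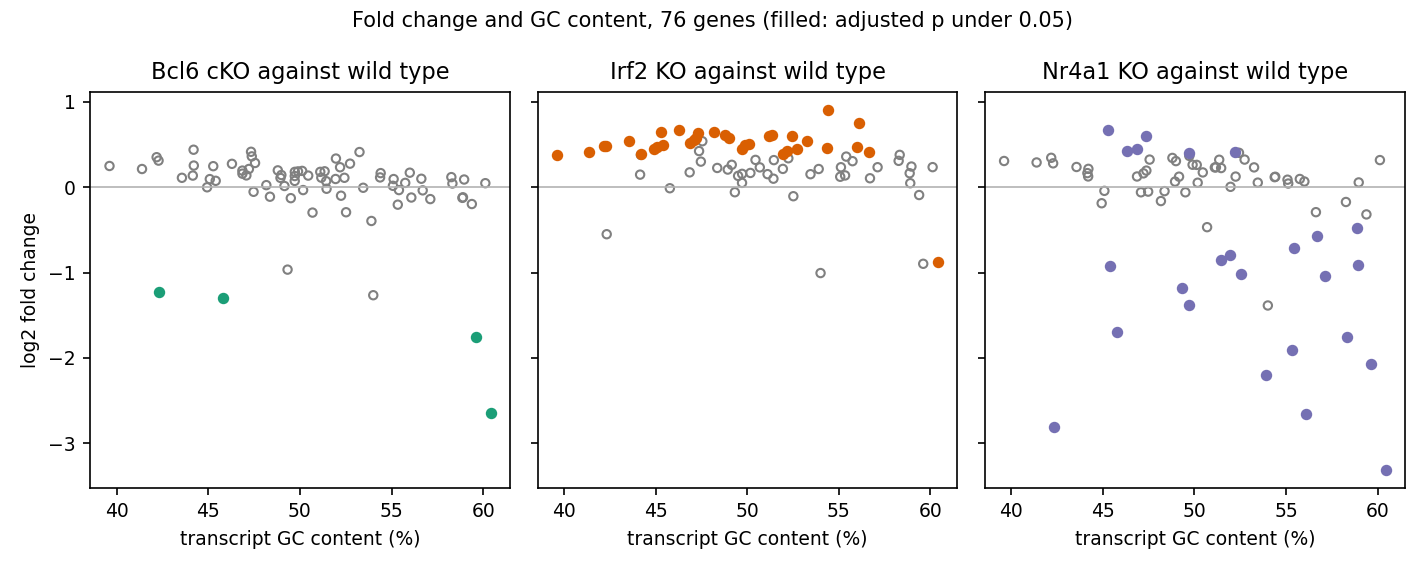
Log2 fold change against wild type (vertical axis) and GC content of the transcript in percent (horizontal axis) for the 76 members in the 3 knockouts, filled where the adjusted p was under 0.05. Falls in Nr4a1 KO spread from Mrpl57 at 42.3% to Mrpl54 at 60.4%, with most on the right.

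Some members share sequence or position with other genes, and the cDNA kit does not mark strand. Exons of 31 members overlapped an annotated exon of another gene in GENCODE M21, and in 8 the overlap exceeded 20% of exon bases. Among called members these were Mrpl19, Mrpl43 (33.4%, with Twnk on the other strand), Mrpl47 (24.2%, with Actl6a and Ndufb5), Mrps18b, Mrps18c (23.2%, with a predicted gene on its own strand) and Mrps25 (69.8%, with Nr2c2). Twnk, the mitochondrial DNA helicase, was called lower, as was Mrpl43, in Nr4a1 KO (-0.88 ± 0.25, adjusted p = 0.0476), and reads within such an overlap cannot be told apart. The call of Twnk ended without any 1 of 7 libraries (highest adjusted p 0.209) and in 8 other settings, among them voom and the correction for GC content and length. In 7 members (Mrpl22, Mrpl23, Mrpl27, Mrps18b, Mrps25, Mrps33 and Mrps36) over 5% of 100-base windows also occurred in another gene, so their values are uncertain. Mrpl54, Mrpl57, Mrpl38, Mrpl37, Mrpl34, Mrps22 and Mrps28 had neither overlap nor shared windows.

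On GRCm38, Mrpl54 spans chr10:81264713-81266934 on the minus strand with 825 exonic bases. Mrpl57 lies at chr14:57826234-57829296 on the plus strand, Mrpl38 at chr11:116131817-116138868 on the minus strand, and Mrps22 at chr9:98588730-98601660 on the minus strand. Mrpl12 lies at chr11:120484613-120489065 on the plus strand, where 13.1% of its exon bases overlap the predicted gene Gm16755 on the other strand.

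Promoter windows from RefSeq (GRCm38.p6, 250 bases before to 50 after each start) were found for 68 of the 76 members, in 74 windows. They were searched on both strands for the letters of 3 motifs seen in promoters of mitochondrial genes: CCGGAAGT (ETS family), GCATGCGC (nuclear respiratory factor 1) and AAGATGGCG (YY1), none of which contains another. The ETS letters stood in 16.2% of member windows (12 of 74) and in 3.89% of all 32851 windows. The nuclear respiratory factor 1 letters stood in 10.8% (8 of 74) and 2.71%, and the YY1 letters in 10.8% (8 of 74) and 1.403%. Of the 15 members that fell in Nr4a1 KO and had a window, 3 held the ETS letters, 2 those of nuclear respiratory factor 1 and 1 those of YY1. Of the 29 that rose in Irf2 KO these were 3, 4 and 4. A match describes the letters only.

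The 250 bases before the start are shown for 4 members that the results turn on, with a motif's letters in capitals. Mrpl12 rose in Irf2 KO and fell in Nr4a1 KO and holds none of the 3 motifs (chr11:120484387-120484636, plus strand). Mrps22 fell in Nr4a1 KO and holds the ETS letters 11 bases before the start (chr9:98601680-98601929, minus strand). Mrpl10, the stalk's anchor, fell in Nr4a1 KO and holds those of nuclear respiratory factor 1 at 134 bases (chr11:97041332-97041581, plus strand). Mrps18c rose in Irf2 KO and Nr4a1 KO and holds the ETS letters on the opposite strand at 157 bases (chr5:100798509-100798758, plus strand).
Mrpl12: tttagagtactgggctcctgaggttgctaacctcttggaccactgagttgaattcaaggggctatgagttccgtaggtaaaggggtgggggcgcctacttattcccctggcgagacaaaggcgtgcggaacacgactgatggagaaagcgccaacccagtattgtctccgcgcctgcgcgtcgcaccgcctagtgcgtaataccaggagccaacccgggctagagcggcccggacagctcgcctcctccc
Mrps22: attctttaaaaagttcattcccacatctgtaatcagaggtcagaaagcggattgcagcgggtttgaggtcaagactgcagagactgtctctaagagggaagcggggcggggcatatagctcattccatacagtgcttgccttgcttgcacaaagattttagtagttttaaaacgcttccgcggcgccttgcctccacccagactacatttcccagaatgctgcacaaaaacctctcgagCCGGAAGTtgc
Mrpl10: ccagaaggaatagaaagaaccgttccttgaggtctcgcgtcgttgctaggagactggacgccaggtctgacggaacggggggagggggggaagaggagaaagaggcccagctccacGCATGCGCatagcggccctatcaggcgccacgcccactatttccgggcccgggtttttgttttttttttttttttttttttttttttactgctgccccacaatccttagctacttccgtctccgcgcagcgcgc
Mrps18c: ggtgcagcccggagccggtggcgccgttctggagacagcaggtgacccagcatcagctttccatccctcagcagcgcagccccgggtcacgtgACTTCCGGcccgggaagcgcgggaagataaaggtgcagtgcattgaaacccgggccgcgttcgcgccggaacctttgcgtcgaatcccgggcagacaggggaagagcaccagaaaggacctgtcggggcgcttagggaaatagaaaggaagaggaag

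The rest of the mitochondrial translation machinery was read in the same way. In Nr4a1 KO 5 of 13 translation factors (38.5%) were called lower and none higher, beside 11.2% and 3.94% of all genes tested. The elongation factor Tsfm fell most, from 5.39 and 5.34 log2 CPM in wild type to 3.001 and 3.49 (-2.12 ± 0.17, adjusted p = 8.36e-05), and it rose in Irf2 KO (0.64 ± 0.17, adjusted p = 0.0308), a call that ended without any 1 of 6 libraries (highest adjusted p 0.163). Taco1, an activator of cytochrome oxidase translation (-1.74), Mtfmt, which formylates the initiator tRNA (-1.42), and Oxa1l, the insertase beside the exit tunnel (-0.61), also fell. Tufm, the partner of Tsfm, had -0.49 ± 0.14 (adjusted p = 0.0497), a call lost in 10 other settings, with values down to -0.081. Among aminoacyl-tRNA synthetases, falls included those of Vars2 (-1.54), Aars2 (-1.26) and Hars2 (-0.88), and Ears2 had 1.46 ± 0.41 (adjusted p = 0.0473), a call that ended without any 1 of 7 libraries. Of 13 genes of mitochondrial transcription and RNA handling, 3 (23.1%) were called lower and none higher: Polrmt, the RNA polymerase (-1.33), Pnpt1 (-0.90) and Twnk. The Nr4a1 KO calls of Tsfm, Mtfmt and Polrmt held without any single library and in all other settings. Those of Taco1 and Hars2 ended without wild type replicate 2 and held without any other library, those of Oxa1l, Vars2 and Aars2 ended without any 1 of at least 2 libraries and that of Pnpt1 without any 1 of 5, and those of Oxa1l, Vars2 and Aars2 also under the correction for GC content and length. At an unadjusted p under 0.05, 1 translation factor and 1 gene of transcription and RNA handling were higher.

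Of 25 assembly factors of the mitochondrial ribosome in the table, Mtg2 was called lower (-1.06) and Noa1 (0.66) and Mterf4 (0.60) higher in Nr4a1 KO, Dhx30 was called lower in Irf2 KO (-0.46), and limma called none in the libraries labelled Bcl6 cKO (2 higher and 1 lower at an unadjusted p under 0.05). Over all genes tested 11.2% were called lower and 3.94% higher in Nr4a1 KO, and 12.3% and 9.26% in Irf2 KO. The calls of Noa1 and Mterf4 ended without any 1 of the 8 libraries, that of Dhx30 without any 1 of 4 and under both scalings, and that of Mtg2 without wild type replicate 2 (adjusted p = 0.0638). Among ribosomal proteins with other names, 5 of 6 were in the table. Chchd1, of the small subunit, was called higher in all 3 knockouts: 6.31 and 6.33 log2 CPM in wild type, 6.81 and 6.77 labelled Bcl6 cKO, 7.10 and 7.21 in Irf2 KO, and 6.77 and 7.03 in Nr4a1 KO. All 6 knockout libraries lay above both wild type libraries. The Irf2 KO and Nr4a1 KO calls held without any single library, while the call for labelled Bcl6 cKO ended without any 1 of 6 (highest adjusted p 0.224) and under the correction for GC content and length.

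Messages encoded by mitochondrial DNA, which these ribosomes translate, were also read. Of the 13 messages encoded by mitochondrial DNA 7 were called higher in Nr4a1 KO, 4 in Irf2 KO and 2 in the libraries labelled Bcl6 cKO, and none lower, also at an unadjusted p under 0.05. Over all genes tested 3.94%, 9.26% and 1.36% were called higher, in the same order. Each call of a mitochondrial message was lost under the correction for GC content and length. Mt-Atp8 had the largest value, from -0.09 and 0.06 log2 CPM in wild type to 1.52 and 1.44 in Nr4a1 KO (1.498 ± 0.29, adjusted p = 0.00912), and 0.614 after that correction (adjusted p = 0.202). Mt-Nd2, called in all 3 (0.45, 0.36 and 0.39 for labelled Bcl6 cKO, Irf2 KO and Nr4a1 KO), had 0.121, 0.214 and 0.021 after it, and each call also ended without any 1 of at least 3 libraries. Mitochondrial reads made up 0.569% to 0.778% of each library's reads in the table. The 2 mitochondrial ribosomal RNAs were not in the table, so that share leaves them out.

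Cytosolic ribosomal protein genes served as the nearest comparison. Of 80, 53 rose and none fell in Irf2 KO (median 0.39), 13 rose and 3 fell in Nr4a1 KO (median 0.19), and 2 rose and none fell in the libraries labelled Bcl6 cKO (median 0.15). Over all genes tested 9.26% were called higher and 12.3% lower in Irf2 KO, 3.94% and 11.2% in Nr4a1 KO, and 1.36% and 3.65% for labelled Bcl6 cKO. At an unadjusted p under 0.05, 1 of the 80 was lower in Irf2 KO and 1 in the libraries labelled Bcl6 cKO. The difference between the cytosolic and mitochondrial sets was not tested. Their summed level was 69550 and 72350 CPM in wild type, 87070 and 87850 in Irf2 KO, and 78340 and 78060 in Nr4a1 KO.

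One member was set apart by a single library. Mrps15, a small subunit protein with a bacterial counterpart, had 62.2 CPM (3604 reads) in wild type replicate 1 and 13.2 CPM (679 reads) in wild type replicate 2, and 9.86 to 15.1 CPM in the 6 knockout libraries. The gap of 2.23 log2 units was the widest between replicates of any member in any genotype. Its knockout values of -1.27, -1.01 and -1.39 (labelled Bcl6 cKO, Irf2 KO and Nr4a1 KO) carried an SE of 0.56 and did not pass, with adjusted p between 0.135 and 0.234 in limma. Mrps15 was chosen after its values were seen.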

How the data were processed

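RNA was sequenced from 8 libraries, 2 for each of 4 genotypes. Per the submitters' processing notes, bcl2fastq, STAR, featureCounts, Salmon and limma were used with build mm10, with no order of steps given. The deposited values were log2 CPM per library, made by the authors from reads plus 0.5, and undoing that with each library's lowest value as 0 reads gave whole reads throughout, so the count-based alternative used recovered reads. The authors' deposited log2 fold changes, p-values and adjusted p-values against wild type were used only as an alternative. The 13789 rows held 13744 genes, and 45 repeated rows were left out.

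The log2 CPM values were fitted in limma 3.58.1 (R 4.3.3) with 4 group means over 12752 genes with a mean of at least 0 log2 CPM (1 CPM). Empirical Bayes moderation let the prior variance follow the mean level (4 residual and 4.66 prior degrees of freedom). P-values were adjusted by Benjamini and Hochberg's method within each comparison, and an adjusted p under 0.05 was called. The 6 pairs of genotypes were compared. SEs assume equal spread in every genotype, and a lone library was assumed to vary like the others when its replicate was left out. The fit was tested on simulated data.

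The alternatives were no trend, no filter, a filter of 4 CPM (9891 genes), median centring, quantile normalization, a block for the replicate number, fits on only the 2 groups compared, weights per library, limma voom on recovered reads, a correction for GC content and length (splines with 4 degrees of freedom, 12740 genes), that correction with the block, leaving out each library, and the authors' results. Gene positions, GC content and exon overlap came from GENCODE M21 on GRCm38. Members named are the largest called changes (up to 8 falls and 8 rises against wild type, up to 5 each way between knockouts), those called in all 3 comparisons, the 3 highest and 3 lowest per kilobase and those in small counts. Up to 4 called genes per other list and comparison are named, and Tufm and the further Nr4a1 KO falls were added after their values were seen. Some genes that the rule would name are not reported here. The members and lists were chosen with earlier results of these data known. The lowest value of a member, Mrps6 in Nr4a1 KO replicate 1, rested on 18 reads. Python 3.11.15 and matplotlib 3.10.9 made the figures.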

Additional observations from a re-analysis of the deposited data

How the results depend on the processing

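Of the values for single genes, 2532 kept their direction and call across the alternatives, 583 lost the call and 4 turned direction. Those 4 were all of mt-Nd6 under the correction for GC content and length: against wild type the value was -0.001 for labelled Bcl6 cKO and -0.083 for Nr4a1 KO (adjusted p 0.997 and 0.703), and again -0.001 and -0.083 when the replicate block was added (adjusted p 0.997 and 0.713). The cause was not tested.

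Counts of called members moved by over 1.5 times as follows. Without the trend of the prior variance 2 were called for labelled Bcl6 cKO against wild type, 16 for Irf2 KO against wild type and 3 for labelled Bcl6 cKO against Irf2 KO. Library weights gave 7 for labelled Bcl6 cKO against wild type and 18 against Irf2 KO. Fitting only the 2 groups compared gave 16 for Nr4a1 KO against wild type and 19 for labelled Bcl6 cKO against Irf2 KO, where the GC and length correction gave 17 (18 with the block). Quantile normalization gave 38 for Nr4a1 KO against wild type. The member medians under quantile normalization and median centring were 0.177 and 0.167 (labelled Bcl6 cKO), 0.413 and 0.45 (Irf2 KO) and 0.197 and 0.206 (Nr4a1 KO). For labelled Bcl6 cKO against Nr4a1 KO the median of 0.036 turned to -0.025 and -0.023, and to -0.029 under the GC and length correction with and without the block. The cause was not tested.

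Leaving out 1 library gave 1 to 6 members for labelled Bcl6 cKO, 3 to 37 for Irf2 KO and 18 to 25 for Nr4a1 KO against wild type, 19 to 30 for Irf2 KO against Nr4a1 KO, 0 to 15 for labelled Bcl6 cKO against Irf2 KO and 10 to 14 for labelled Bcl6 cKO against Nr4a1 KO. The medians ran from 0.068 to 0.127, 0.302 to 0.416, 0.026 to 0.091, 0.239 to 0.397, -0.358 to -0.23 and -0.007 to 0.086 in the same order. Calls over all genes also changed in number with the library left out.

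Libraries of different genotypes share only a replicate number: the correlations of their deviations ran from -0.0029 to 0.1827 over 12752 genes. With the replicate number as a block the counts were 4, 36, 24, 31, 9 and 14 in the order above. With 2 libraries per genotype, the spread rests on few degrees of freedom, and Mrps6 is the member that depth limits most.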
